A study of Homo sapiens with 24 samples.

Results

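Hairpin A against CHD1 was compared with the hairpin against GFP in MCF10A PE, and the change was read across all 20820 genes that could be tested. The 8 libraries compared, 4 with each hairpin, were taken by the line, hairpin and replicate number in their labels out of 24 libraries in the series, and no measured value chose them. MCF10A is an established line of human breast epithelial cells that does not form tumours. The labels call its derivative PE non-transformed and its derivative PM MYC-transformed. The groups used are PE with the GFP hairpin (GFP libraries), PE with hairpin A against CHD1 (A libraries) and, for tests of difference, PE with hairpin B against CHD1 and PM with the GFP hairpin, hairpin A or hairpin B. Every group, the GFP hairpin controls included, received doxycycline at 50 ng/ml for 72 h in medium with horse serum, EGF, hydrocortisone, cholera toxin and insulin. RNA was extracted from 200000 cells, selected for poly(A) and sequenced in bulk. The hairpins' sequences and delivery, and whether a line is 1 clone, are not stated in these sources. The 4 libraries of a group carry the label biological replicate, but whether each had its own culture is not said. The p-values therefore rest on library-to-library spread, which may be technical.

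CHD1 is a chromatin remodeller that uses ATP to space, slide and exchange nucleosomes. Its chromodomains bind methylated histone tails at active promoters, and it travels with elongating RNA polymerase II beside the histone chaperone FACT. In bulk RNA, fewer cells of a kind and less RNA per cell cannot be told apart, so each value below is a level per library.

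The A libraries held 34132391 to 54843635 counts. GFP replicates 1 to 4 held 4142862, 18893284, 66165036 and 51091676 counts, so that replicate 1 was shallow. The main axis of a principal component analysis of 1000 genes, with 67.65% of the variance, put the A libraries at 13.4 to 18.5 and the GFP libraries at -7.23 to -26.7, with the shallow replicate 1 the farthest out. Mitochondrial ribosomal RNA made up 0.374 to 0.440% of counts in the A libraries and 0.272 to 0.286% in GFP replicates 1 to 3, while GFP replicate 4 held 0.439%. The part of these differences in the results was not tested. Breast epithelial markers were present in all 8 libraries, with KRT5 at 1294 ± 304 CPM (CPM, counts scaled to a common library size after TMM normalization, mean ± SD, n = 4) in the GFP and 1321 ± 324 CPM in the A libraries, and CD44 at 247 ± 29.3 and 228 ± 6.95 CPM. The basal marker TP63 was at 0.5097 ± 0.188 and 0.6499 ± 0.474 CPM, and KRT19 was too low to be tested. Of 18 immune cell markers 12 were too low to be tested, PTPRC among them, and the summed level of the 6 tested was 71.9 to 82.5 CPM in the GFP and 72.9 to 85.1 CPM in the A libraries.

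The targeted gene was low in every A library. CHD1 stood at 86.8, 76.5, 74.2 and 77.6 CPM in GFP replicates 1 to 4 and at 29.3, 28.5, 28.2 and 30.8 CPM in A replicates 1 to 4. The groups did not overlap, and the A mean was 37.1% of the GFP mean. In the model across all genes CHD1 fell by 1.42 on the log2 scale (SE 0.100, adjusted p = 9.88e-13). An exact two-sided permutation test of the mean levels gave p = 0.0286, the smallest that 4 against 4 libraries allow. MYC, the transcription factor whose expression marks the PM derivative, was at 249, 285, 284 and 283 CPM in the GFP and 258, 263, 246 and 264 CPM in the A libraries (log2 change -0.097, adjusted p = 0.31, exact permutation p = 0.114). It passed only when library sizes alone scaled the counts (log2 change -0.17, adjusted p = 0.019) or when only genes of at least 5 CPM were tested (adjusted p = 0.0458).

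With hairpin A, 4208 genes, or 20.2% of those tested, passed an adjusted p of 0.05. Of these 2265 genes (10.9% of those tested) were higher and 1943 genes (9.33%) were lower, so that 53.8% of the calls were rises. Scaling by library sizes alone turned that balance, with 1704 higher and 2638 lower calls, or 39.2% rises, and the genes' median moved by -0.07 on the log2 scale. Most changes were small: the median size among called genes was 0.47 on the log2 scale, and 54.6% of them changed by less than 0.5. Among genes with at least 5 CPM in a group, 132 rose and 173 fell at least 2-fold. The A and GFP libraries did not overlap for 4404 genes (21.2%), 12.0% of those tested being higher and 9.19% lower, and 80.6% of the called genes were among them. Calls were denser among genes of at least 5 CPM in a group, 33.2% of which passed, than among weaker genes, 5.08% of which passed. Protein-coding genes gave 2115 rises and 1728 falls of 14186 tested, and long non-coding RNAs 71 rises and 125 falls of 3806. In either direction 27.1% of protein-coding genes and 5.15% of long non-coding RNAs were called. The counts of gene lists below stand beside these shares, and a list near them is not set apart by its count. Without the shallow GFP library, the other 7 libraries alone gave 2095 rises and 1999 falls.

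**Figure D1:**
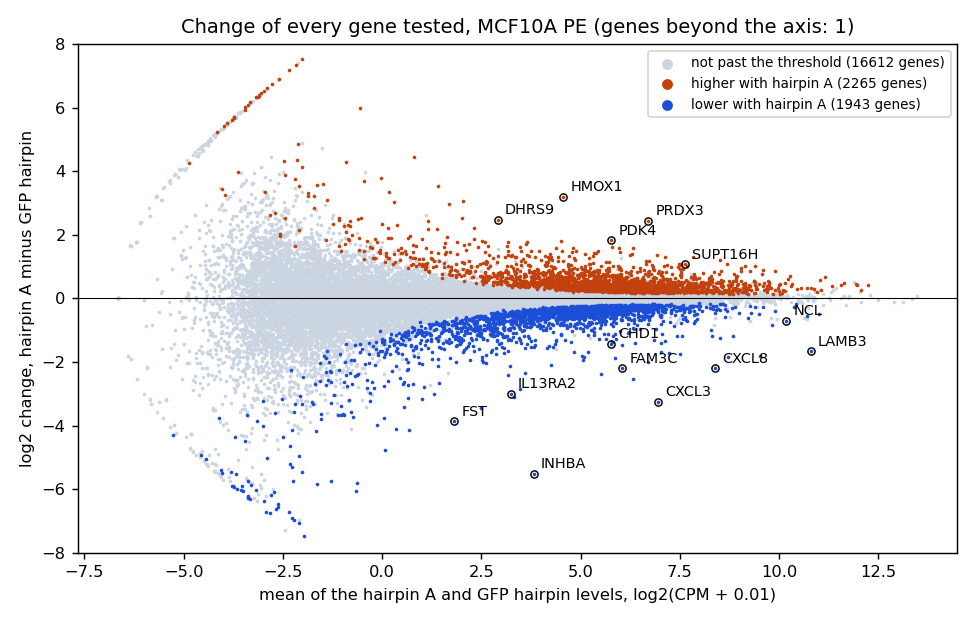
Each dot is 1 of 20820 genes, with the mean of the 2 group levels on the x axis (log2 of CPM + 0.01) and the log2 change of hairpin A against the GFP hairpin on the y axis. The 2265 higher and 1943 lower genes lie at every level above the weakest, and the curved edges at the left are genes with no count in 1 group, whose fitted change has no fixed size.

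Falls and rises were ranked by size over the called protein-coding genes that reached 5 CPM on average with either hairpin, so weaker genes with larger fitted changes are outside the ranking. INHBA, with the largest fall in it, encodes the subunit that forms activin A. It was at 32.9, 26.2, 36.3 and 15.01 CPM in the GFP libraries and 0.816, 0.4103, 0.511 and 0.599 CPM in the A libraries, and fell by 5.51 on the log2 scale (SE 0.55, adjusted p = 4.15e-07), a 45.6-fold lower level. FST, the secreted follistatin that binds and neutralizes activin, was at 8.46, 8.88, 5.45 and 3.47 CPM and 0.6998, 0.293, 0.211 and 0.506 CPM and fell by 3.86 (adjusted p = 2.17e-08). Both genes were far below every GFP library in all 4 A libraries, and GFP replicate 4 was the lowest GFP library for both. IL13RA2, a decoy receptor for interleukin 13, stood at 18.7, 19.1, 14.8 and 14.4 CPM with the GFP hairpin and 2.02, 2.37, 2.04 and 1.91 CPM with hairpin A (log2 change -2.99, SE 0.32, adjusted p = 1.94e-08). The 4 A libraries lay close together, far below the lowest GFP library.

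The protease inhibitors SERPINB2, SERPINB4 and SERPINB3 fell, with log2 changes of -3.45, -3.11 and -2.84 and adjusted p-values of 0.00196, 0.016 and 0.000401. SERPINB2 was at 13.6, 7.54, 14.01 and 6.37 CPM in the GFP libraries, and no A library was above 2.02 CPM. SERPINB3 and SERPINB4 are near-identical neighbours on chromosome 18, so reads could be split between them. SERPINB4 lost its call when the 7 libraries other than the shallow one were fitted alone (adjusted p = 0.0734). Of 8 clade B serpins tested, 6 were lower and none higher, with a median log2 change of -0.84 against -0.0019 over all genes tested. Without GFP replicate 3 or GFP replicate 4, 1 serpin was also called higher. PI3, the elastase inhibitor elafin, was at 151, 153, 147 and 95.9 CPM and 25.4, 24.998, 26.9 and 16.2 CPM (log2 change -2.54, SE 0.202, adjusted p = 1.61e-08). GALNT3, an enzyme that starts O-glycosylation, fell by 2.397 on the log2 scale (SE 0.19, adjusted p = 3.13e-11), and KRT17, a keratin of basal and stressed epithelium, fell by 2.39 on the log2 scale (SE 0.35, adjusted p = 5.28e-05). KRT17 ranged widely among the GFP libraries, at 115, 87.3, 62.04 and 40.7 CPM, and all 4 A libraries, at 13.5, 17.5, 16.8 and 9.27 CPM, were below them.

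The largest rise in the same ranking was that of the haem-degrading enzyme HMOX1. HMOX1 was at 5.34, 4.44, 4.31 and 4.91 CPM in the GFP libraries and 44.1, 53.4, 28.1 and 44.6 CPM in the A libraries, and rose by 3.199 on the log2 scale (SE 0.299, adjusted p = 1.75e-07). PRDX3, the peroxiredoxin that removes hydrogen peroxide in mitochondria, had the smallest adjusted p of the 12 largest rises in that ranking. Its GFP libraries were at 29.8, 32.1, 31.3 and 35.3 CPM and its A libraries at 175, 180.3, 176 and 177 CPM, with no overlap and a spread of a few CPM in each group (log2 change 2.45, SE 0.08, adjusted p = 4.72e-23). PDK4, the kinase that shuts off pyruvate dehydrogenase, was at 20.7, 23.5, 19.5 and 30.6 CPM and 92.7, 80.5, 68.7 and 100.5 CPM (log2 change 1.84, SE 0.23, adjusted p = 9.12e-06).

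The other large rises started from low levels. SHISA9 (3.06), IFITM10 (2.97), SEMA3B (2.53), DHRS9 (2.47), CIDEC (2.202), SYN2 (1.86), MYLK (1.79), MMP2 (1.79) and STAC2 (1.77) passed with the log2 changes given. DHRS9, a retinol dehydrogenase, was at 0.668, 1.76, 2.07 and 3.81 CPM with the GFP hairpin and 13.9, 11.8, 12.7 and 13.4 CPM with hairpin A (log2 change 2.47, SE 0.34, adjusted p = 2.1e-06). SEMA3B, a secreted semaphorin, was at 2.002, 0.723, 0.9596 and 1.52 CPM and 5.404, 6.51, 7.25 and 8.07 CPM. CIDEC, a lipid droplet protein, was at 2.002, 0.619, 1.904 and 2.43 CPM and 8.96, 7.18, 8.03 and 8.37 CPM. None of these 3 genes overlapped between the groups. IFITM10 was not counted in GFP replicate 1 and lost its call with limma-voom (adjusted p = 0.110), and SHISA9 reached 3.78, 0.671, 0.899 and 0.118 CPM in the GFP libraries, where replicate 1 stood above the other 3.

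**Figure D2:**
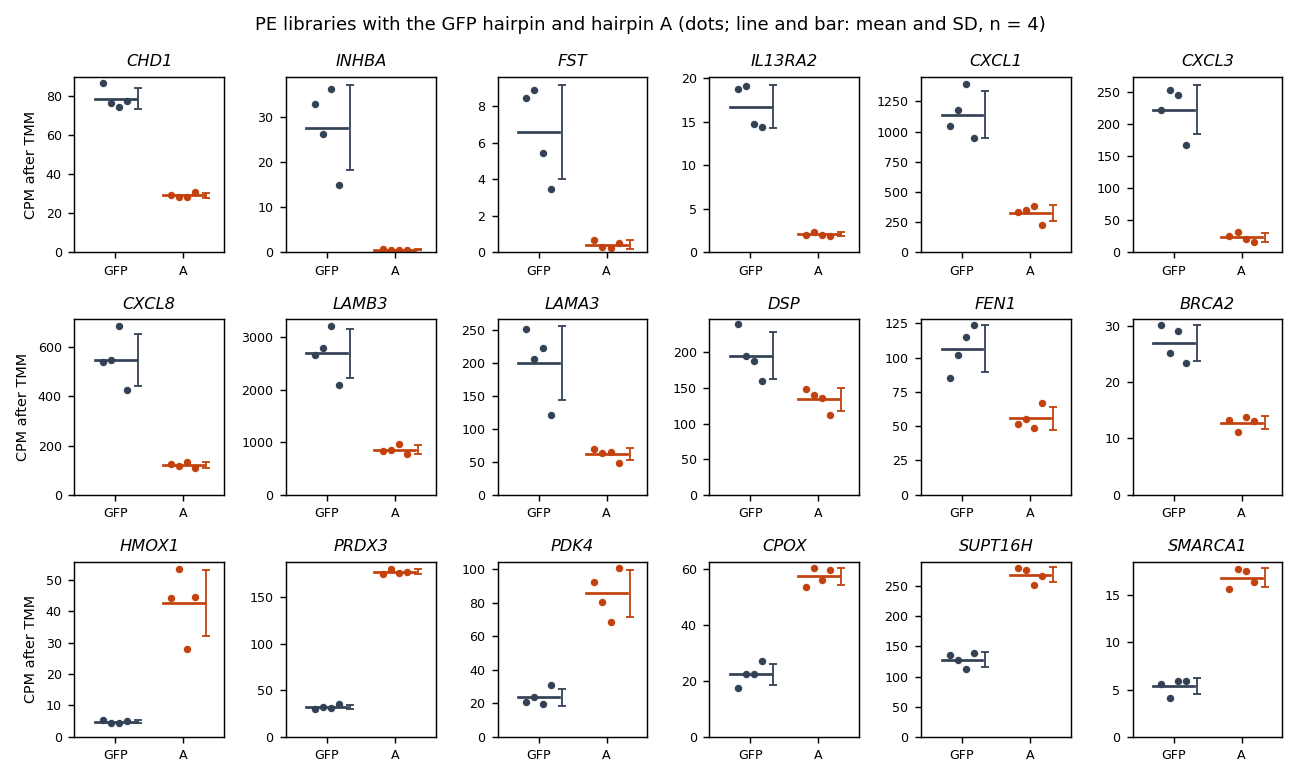
Levels in CPM after TMM for 18 genes in PE, 4 GFP and 4 A libraries, 1 panel each with its own y axis from 0. Dots are libraries, the line is the mean and the bar the SD. The groups do not overlap in any panel, and PRDX3 goes from 32.1 to 177 CPM.

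PRDX3 lies on chromosome 10, with SFXN4 and DENND10 on one side and GRK5 on the other. DENND10, a regulator of endosomes, was at 8.46, 13.3, 16.3 and 17.1 CPM in the GFP and 34.7, 35.3, 31.5 and 31.7 CPM in the A libraries (log2 change 1.19, SE 0.12, adjusted p = 1.5e-09). Its copy DENND10P1 on chromosome X gave a log2 change of 1.26 (adjusted p = 7e-05), and reads of the gene and its copy could have been split. SFXN4, which lies between them and encodes a mitochondrial carrier, was slightly lower, at 40.1, 31.95, 34.1 and 29.9 CPM and 31.004, 29.5, 22.1 and 25.9 CPM (log2 change -0.300, SE 0.101, adjusted p = 0.0319). SFXN4 overlapped between the groups and lost its call without A replicate 3 (adjusted p = 0.142), A replicate 4 (0.0721), GFP replicate 1 (0.102) or GFP replicate 3 (0.0783). It also lost its call in the 8 libraries alone (0.0582), in 7 without the shallow one (0.129) and in the 12 PE libraries (0.0602). The same held with limma-voom (0.103) and with counts thinned to the shallowest library (0.0801). GRK5, a receptor kinase, was at 4.46 ± 1.96 CPM and 5.02 ± 1.19 CPM and did not pass (adjusted p = 0.89).

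Chemokines and cytokines of the NF-kB pathway fell more often than they rose. In epithelial cells, interleukin 1 and tumour necrosis factor free the NF-kB dimers, which enter the nucleus and switch on chemokine genes. Neutrophil-attracting chemokines of the CXCL family sit in a cluster on chromosome 4. Of 21 chemokines listed 12 could be tested, and 5 of these were lower and none higher, with a median log2 change of -1.53. CXCL3 was at 222, 253, 246 and 168 CPM in the GFP and 25.02, 31.7, 21.4 and 15.6 CPM in the A libraries (log2 change -3.25, SE 0.32, adjusted p = 4.69e-07). CXCL8, the interleukin 8 gene, was at 539, 550.4, 686 and 427 CPM and 124, 115, 134 and 108 CPM (log2 change -2.19, SE 0.21, adjusted p = 2.36e-07). CXCL1 was at 1045, 1175, 1392 and 950.1 CPM and 335, 351, 385 and 229 CPM (log2 change -1.81, SE 0.22, adjusted p = 6.13e-06). For these 3 chemokines the highest A library lay well under the lowest GFP library. CXCL2 and the CCR6 ligand CCL20 fell, with log2 changes of -1.32 and -1.24 (adjusted p = 0.00344 and 0.000684). Summed over the tested chemokines, the A libraries held 554 to 859 CPM and the GFP libraries 2161 to 3094 CPM.

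The start regions of the 4 CXCL genes that fell are shown because all 4 hold the same NF-kB letters. Each line gives 130 bases of the RefSeq promoter in GRCh38.p14, read along the gene's strand from upstream of the start site to just past it. CXCL1 is taken from chr4:73869273-73869402 on the plus strand, CXCL2 from chr4:74099186-74099315 and CXCL3 from chr4:74038680-74038809 on the minus strand, and CXCL8 from chr4:73740449-73740578 on the plus strand. Capitals mark GGAATTTCC, a partial form of the NF-kB consensus, searched on both strands. The base before it is g in CXCL1, CXCL2 and CXCL3 and t in CXCL8.

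CXCL1: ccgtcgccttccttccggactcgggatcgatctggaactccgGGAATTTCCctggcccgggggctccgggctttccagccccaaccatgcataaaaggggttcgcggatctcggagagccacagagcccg
CXCL2: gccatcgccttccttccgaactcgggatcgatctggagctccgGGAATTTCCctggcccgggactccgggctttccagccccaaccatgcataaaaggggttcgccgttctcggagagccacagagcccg
CXCL3: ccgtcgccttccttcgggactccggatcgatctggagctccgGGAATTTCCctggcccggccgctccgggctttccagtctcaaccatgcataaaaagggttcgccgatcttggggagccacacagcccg
CXCL8: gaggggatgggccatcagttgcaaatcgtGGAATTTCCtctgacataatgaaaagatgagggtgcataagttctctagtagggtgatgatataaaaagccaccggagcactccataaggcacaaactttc

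The match ran from 78 to 70 bases before the start in CXCL1 and CXCL3, from 77 to 69 in CXCL2 and from 91 to 83 in CXCL8. The sequences of CXCL1, CXCL2 and CXCL3 around it are nearly alike, so these 3 are not independent instances. GGAATTTCC was in 0.43% of the 11521 tested protein-coding promoters of 300 bases, in 0.88% of those of lower genes, and in 2.63% (6 of 228) of those of genes at least 2-fold lower. The 4 CXCL promoters shown are among these 6, and without them 2 of 224 (0.89%) held it. It was in 0.51% of the promoters of higher genes and in none of the 151 promoters of genes at least 2-fold higher. Of the other motifs searched in the same 300 bases, only those of AP-1 and TATA were also more frequent in the promoters of genes at least 2-fold lower than in all tested. Less frequent were the letters of E2F (1.32% against 2.52%, and 0% against 1.04% for a second form) and NF-Y (34.6% against 36.4%). So were those of the cell cycle homology region (8.77% against 10.1%), the E-box (9.21% against 9.88%) and the antioxidant response element (11.4% against 14.7%). The AP-1 letters TGACTCA were in 7.89% against 3.38%, and the TATA letters TATAAA in 10.97% against 6.41%. In the promoters of genes at least 2-fold higher these shares were 5.30% and 11.26%. All these shares describe letters in a window and not binding, and were not tested.

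Among 40 NF-kB pathway and inflammatory genes tested, 16 were lower and 2 higher, and with the replicate number as a block 18 were lower and 4 higher. The interleukin 1 genes IL1A and IL1B fell, with log2 changes of -1.75 and -1.19 (adjusted p = 4.42e-05 and 0.00188), and in the 7 libraries without the shallow one IL1B lost its call (adjusted p = 0.0503). IL1A was at 310.2, 270.4, 326 and 203 CPM in the GFP and 105, 99.2, 74.8 and 49.9 CPM in the A libraries, without overlap. IL6, the cytokine of the acute phase, was at 183, 220.1, 156 and 106 CPM and 52.8, 56.6, 32.2 and 23.5 CPM (log2 change -2.004, SE 0.45, adjusted p = 0.0034). PTGS2, the inducible cyclooxygenase, fell by 1.56 (adjusted p = 0.000374), and BIRC3, a ubiquitin ligase of the pathway, fell by 1.35 (adjusted p = 0.000453). The feedback inhibitors of NF-kB, which it switches on itself, were lower too, with log2 changes of -0.81 for TNFAIP3 and -0.50 for NFKBIA (adjusted p = 0.000789 and 4.64e-07). CSF2, a growth factor of granulocytes and macrophages, and IL1RN, the interleukin 1 receptor antagonist, had larger fitted falls at low levels, both under 5 CPM on average in both groups. CSF2 was at 2.002, 1.65, 4.92 and 0.947 CPM and 0, 0.293, 0.301 and 0 CPM (log2 change -4.097, SE 1.03, adjusted p = 0.00398), and lost its call without GFP replicate 3 (adjusted p = 0.0507). IL1RN was at 2.002, 2.43, 1.61 and 1.54 CPM and 0.0778, 0.293, 0.0902 and 0.0936 CPM (log2 change -3.77, SE 0.803, adjusted p = 0.000725). LCN2, an iron-binding defence protein, was at 3.12, 4.44, 2.73 and 0.907 CPM and 0.3305, 0.4396, 0.1804 and 0.2997 CPM (log2 change -3.12, SE 0.75, adjusted p = 0.00305). The 2 members that rose were the interleukin 1 receptor and a macrophage growth factor. IL1R1 was at 35.2, 39.4, 44.1 and 47.98 CPM and 85.3, 80.1, 89.98 and 81.4 CPM (log2 change 0.99, SE 0.101, adjusted p = 3.44e-09), and CSF1 at 80.3, 94.7, 126 and 100.1 CPM and 168, 184, 201 and 174 CPM (log2 change 0.84, SE 0.15, adjusted p = 0.000401).

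Ligands and receptors of the activin, BMP and TGF-beta family changed in both directions, with 10 lower and 6 higher of 41 tested. BMP2, a bone morphogenetic protein, was at 18.02, 18.3, 15.3 and 9.59 CPM with the GFP hairpin and 2.97, 3.28, 2.74 and 4.79 CPM with hairpin A (log2 change -2.12, SE 0.28, adjusted p = 9.43e-07). The activin receptor ACVR2B and the TGF-beta receptor TGFBR1 fell, with log2 changes of -1.30 and -0.81 (adjusted p = 1.06e-06 and 2.91e-06). Among the rises were LTBP1, which holds latent TGF-beta in the matrix, at 0.92 (adjusted p = 0.000403), the protease BMP1 at 0.74 (adjusted p = 4.46e-05) and the activin-binding FSTL3 at 0.75 (adjusted p = 2.99e-06). FSTL3 thus rose while its relative FST fell.

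Among genes of epithelial contacts, falls outnumbered rises in the desmosome, tight junction and adherens junction lists, and not in the hemidesmosome and laminin list. Desmosomes anchor keratin filaments at cell contacts, and hemidesmosomes anchor them to a laminin of the basement membrane. Of 10 desmosome genes 7 were lower and none higher, and of 12 tight junction genes 4 were lower, none higher and 8 did not pass. DSP, the desmoplakin that ties keratins to the desmosome, was at 240.1, 195, 187 and 159.5 CPM in the GFP and 148, 140.4, 136 and 111 CPM in the A libraries (log2 change -0.54, SE 0.097, adjusted p = 0.000143). The desmosomal plaque protein PKP2 and the cadherin DSC2 fell, with log2 changes of -1.56 and -1.03 (adjusted p = 6.84e-08 and 4.71e-05). In tight junctions, the adhesion molecule F11R and the claudin CLDN12 fell, with log2 changes of -0.62 and -0.83 (adjusted p = 1.14e-06 and 3.07e-08). Of 23 adherens junction and polarity genes 9 were lower, 2 higher and 12 did not pass, with 10 lower and 4 higher under the replicate block. The 2 that rose were the catenins CTNNA1 and CTNNB1, which link cadherins to actin, with log2 changes of 0.27 and 0.26 (adjusted p = 0.00183 and 0.000844). CDH1, the E-cadherin of adherens junctions, was at 13.8, 11.05, 8.29 and 3.75 CPM with the GFP hairpin and 4.08, 1.08, 1.504 and 1.798 CPM with hairpin A (log2 change -1.95, SE 0.37, adjusted p = 0.000763). CDH1 was low in all 8 libraries, and GFP replicate 4 lay below A replicate 1. ESRP1, the epithelial splicing regulator, was at 12.2, 8.41, 5.47 and 3.85 CPM and 2.702, 1.79, 1.35 and 1.199 CPM (log2 change -1.93, SE 0.25, adjusted p = 1.72e-06).

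The laminin chain genes LAMA3 and LAMB3 fell. LAMB3 was at 2667, 2799, 3215 and 2086 CPM in the GFP and 829, 845, 970.2 and 778 CPM in the A libraries (log2 change -1.65, SE 0.12, adjusted p = 1.75e-09). LAMA3 was at 251, 206, 222 and 121 CPM and 69.7, 62.5, 64.5 and 48.4 CPM (log2 change -1.696, SE 0.17, adjusted p = 5.14e-07). No A library reached a GFP library for either chain. COL17A1, the transmembrane collagen of hemidesmosomes, fell by 1.30 (adjusted p = 0.0129), and the integrin ITGB6, listed among breast epithelial markers, fell by 1.52 (adjusted p = 0.00037). Of 15 hemidesmosome and laminin genes 4 were lower and 5 higher. COL7A1, the anchoring fibril collagen, and the laminin chain LAMB1 of other laminins rose, with log2 changes of 0.75 and 0.61 (adjusted p = 0.000518 and 2.64e-09). LAMB1 was at 216, 232, 246 and 256 CPM and 369, 349, 372 and 361 CPM, again without overlap.

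The epithelial adhesion molecule EPCAM was at 28.3, 27.4, 15.2 and 14.5 CPM with the GFP hairpin and 7.09, 9.11, 6.08 and 6.65 CPM with hairpin A (log2 change -1.47, SE 0.21, adjusted p = 3.15e-05). Keratins split, with 3 higher (17.6%) and 4 lower (23.5%) of 17 tested, against 10.9% and 9.33% of all genes. With limma-voom or in the 8 libraries with the replicate block 7 keratins were lower. The counts were 1 higher and 3 lower without A replicate 3, 3 and 2 without A replicate 4, and 2 and 2 without GFP replicate 2. KRT6B fell by 1.14 (adjusted p = 0.000707), and the simple keratin KRT8 rose from 191, 228, 260.2 and 268 CPM to 336, 365, 433 and 411 CPM (log2 change 0.698, SE 0.13, adjusted p = 0.000346). KRT6A, another keratin of activated epidermis and one of the genes with the most counts among those called lower, was at 2389, 2131, 1853 and 1525 CPM and 1622, 1516, 1212 and 1013 CPM (log2 change -0.56, SE 0.18, adjusted p = 0.0309). KRT6A overlapped between the groups and lost its call without A replicate 3 (adjusted p = 0.0824), A replicate 4 (0.0995), GFP replicate 1 (0.105) or GFP replicate 2 (0.080). It also lost its call in the 8 libraries alone (0.0985), in 7 without the shallow one (0.201), in the 12 PE libraries (0.0783) and without the filter on low counts (0.0518).

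Matrix genes rose more often than they fell. Of 37 collagens and matrix glycoproteins 10 were higher and 1 lower, 13 and 2 under the replicate block, and 9 and 2 without GFP replicate 4. FBN1, the fibrillin of elastic microfibrils, was at 17.6, 22.6, 29.3 and 25.2 CPM with the GFP hairpin and 45.5, 42.8, 48.8 and 46.1 CPM with hairpin A (log2 change 0.904, SE 0.12, adjusted p = 4.22e-07). SPARC, a matrix glycoprotein, rose by 0.48 (adjusted p = 0.00175). Of 20 mesenchymal factors and markers 8 were higher and 3 lower, and the lower count was 1 without A replicate 3, GFP replicate 2 or GFP replicate 3. VIM, the mesenchymal filament vimentin, was at 791, 784, 988 and 920.3 CPM and 1178, 1152, 1266 and 1162 CPM (log2 change 0.45, SE 0.06, adjusted p = 1.36e-06). S100A4 was at 14.5, 12.5, 17.2 and 17.4 CPM and 37.7, 36.8, 49.98 and 51.4 CPM (log2 change 1.49, SE 0.14, adjusted p = 7.99e-10). The repressor SNAI1 rose by 0.73 (adjusted p = 0.000567), whereas its relative SNAI2 was at 33.4, 32.9, 48.2 and 46.2 CPM and 26.9, 24.1, 25.7 and 32.3 CPM (log2 change -0.58, SE 0.17, adjusted p = 0.0149). The other 2 members that fell were the transcription factor FOXC2 and the cadherin CDH11, with log2 changes of -0.397 and -1.17 (adjusted p = 0.0231 and 0.0447). CDH11 was at 14.2, 12.3, 8.33 and 4.34 CPM and 6.63, 5.22, 2.26 and 2.96 CPM, and its groups overlapped. CDH11 lost its call in the 8 libraries alone (adjusted p = 0.103), in 7 without the shallow one (0.221) and without any 1 library other than A replicate 1 or GFP replicate 4 (0.0612 to 0.149). FOXC2 lost its call with limma-voom (0.061) and without A replicate 3 (0.068), GFP replicate 1 (0.0508) or GFP replicate 2 (0.0957), and SNAI2 without GFP replicate 3 (0.0708) or GFP replicate 4 (0.060). CDH2, the N-cadherin, was at 47.4 ± 3.09 CPM with the GFP hairpin and 50.3 ± 0.977 CPM with hairpin A (adjusted p = 0.507). Of 30 matrix proteases and inhibitors 8 were higher and 4 lower. MMP2, a gelatinase, was at 2.89, 7.74, 11.5 and 14.4 CPM and 29.1, 29.1, 42.2 and 44.3 CPM (log2 change 1.79, SE 0.37, adjusted p = 0.0015), and CTSD, a lysosomal protease, at 194, 235, 211 and 242 CPM and 474, 512, 515 and 557 CPM (log2 change 1.22, SE 0.14, adjusted p = 2.72e-06). TIMP1, an inhibitor of these proteases, fell by 0.49 (adjusted p = 7.43e-05). MYLK, the myosin light chain kinase, was at 2.23, 2.12, 2.696 and 2.900 CPM and 7.91, 7.68, 9.23 and 10.9 CPM (log2 change 1.79, SE 0.25, adjusted p = 3.91e-06). The fibroblast marker FAP rose from 4.61 ± 2.11 to 12.4 ± 2.28 CPM (adjusted p = 2.86e-05), the only one of 11 fibroblast and endothelial markers tested to pass in the fit of 24 libraries without the block. With limma-voom, or in fits of the 7 or 8 libraries compared or the 12 PE libraries, 2 were higher and 1 lower. The summed level of these 11 markers was 54.0 to 71.3 CPM in the A and 65.9 to 82.7 CPM in the GFP libraries, so their sum was not higher with hairpin A.

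Genes of DNA replication, repair and mitosis fell in large numbers. Of 59 replication and G1/S genes 34 were lower and 4 higher, with a median log2 change of -0.36. Of 42 homologous recombination and Fanconi genes 25 were lower and none higher, with the same median of -0.36. Of 58 mitosis and kinetochore genes 27 were lower and 4 higher, with a median of -0.21. FEN1, the flap endonuclease of lagging strand synthesis, was at 84.8, 102, 115 and 124 CPM with the GFP hairpin and 51.5, 55.1, 48.7 and 66.99 CPM with hairpin A (log2 change -0.95, SE 0.13, adjusted p = 7.86e-06). CDT1, which licenses origins, was at 43.8, 57.9, 58.3 and 69.5 CPM and 35.9, 39.1, 29.1 and 43.6 CPM (log2 change -0.66, SE 0.13, adjusted p = 0.000609). POLA1, the catalytic subunit of primase-polymerase alpha, and MCM2, a subunit of the replicative helicase, fell, with log2 changes of -0.58 and -0.37 (adjusted p = 1.18e-05 and 0.00526). BRCA2, a mediator of homologous recombination, was at 30.3, 25.1, 29.1 and 23.4 CPM and 13.3, 11.2, 13.7 and 13.1 CPM (log2 change -1.06, SE 0.14, adjusted p = 4.9e-07). XRCC2, of homologous recombination, and FANCA, of the Fanconi core complex, fell, with log2 changes of -0.84 and -0.71 (adjusted p = 1.61e-06 and 1.91e-07). In mitosis, the kinetochore scaffold KNL1 and the centromere protein CENPK fell, with log2 changes of -0.75 and -0.83 (adjusted p = 6.32e-07 and 2.79e-06), and the proliferation marker MKI67 fell by 0.32 (adjusted p = 0.00246).

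Single members went against their lists. PCNA, the sliding clamp of the replication fork, was at 57.9, 66.3, 59.6 and 63.2 CPM with the GFP hairpin and 98.2, 92.6, 85.1 and 92.5 CPM with hairpin A (log2 change 0.57, SE 0.08, adjusted p = 1.79e-06). NUF2, a subunit of the NDC80 complex at the kinetochore, was at 21.8, 28.6, 28.4 and 29.9 CPM and 46.9, 45.8, 48.2 and 44.8 CPM (log2 change 0.74, SE 0.09, adjusted p = 2.98e-07). Neither gene overlapped between the groups. Of 40 replication-dependent histone genes tested in these poly(A) libraries 2 were lower and none higher, and 1 was lower without A replicate 2, A replicate 3, GFP replicate 1 or GFP replicate 3.

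Targets of p53 did not move one way. Of 34 tested 6 were higher (17.6%) and 8 lower (23.5%), against 10.9% and 9.33% of all genes, with a median of -0.13. Leaving out A replicate 1 or A replicate 3 left 3 higher and 7 lower. CDKN1A, the p53-induced inhibitor of cyclin-dependent kinases, was at 159.8, 179.8, 197 and 161 CPM with the GFP hairpin and 289, 310.5, 272 and 245 CPM with hairpin A (log2 change 0.67, SE 0.16, adjusted p = 0.00447). TRIAP1, a small mitochondrial p53 target, rose by 0.79 (adjusted p = 9.01e-09). BTG2, an antiproliferative target, was at 41.6, 41.4, 40.98 and 33.6 CPM and 13.7, 14.2, 16.1 and 16.2 CPM (log2 change -1.38, SE 0.22, adjusted p = 0.000146). ZMAT3, an RNA-binding target, was at 58.96, 51.6, 55.98 and 48.9 CPM and 33.6, 36.05, 34.2 and 31.4 CPM (log2 change -0.66, SE 0.07, adjusted p = 2.98e-08). The apoptosis gene BBC3 and the receptor EDA2R fell, with log2 changes of -1.08 and -0.81 (adjusted p = 1.62e-05 and 0.000108).

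Genes of haem, antioxidant defence, lipid and energy metabolism rose more often than they fell. Of 36 NRF2 and BACH1 targets and haem genes 13 were higher and 3 lower, and without GFP replicate 3, 11 were higher and 1 lower. CPOX, an enzyme of haem synthesis, was at 17.6, 22.3, 22.5 and 26.9 CPM with the GFP hairpin and 53.6, 60.05, 56.1 and 59.5 CPM with hairpin A (log2 change 1.32, SE 0.09, adjusted p = 8.78e-13). The quinone reductase NQO1 rose by 0.78 (adjusted p = 0.000205). BACH1, the repressor of HMOX1, fell by 0.47 (adjusted p = 0.00574). GCLM, of glutathione synthesis and also on the list, was at 91.97 ± 5.96 CPM against 97.5 ± 15.2 CPM and did not pass (adjusted p = 0.801). The cystine transporter SLC7A11 was at 42.3, 54.6, 37.2 and 54.5 CPM and 75.4, 74.96, 45.3 and 71.7 CPM and passed only with the replicate number as a block (adjusted p = 0.275, with the block 0.028). Of 24 cholesterol synthesis genes 10 were higher and none lower. INSIG1, the sterol-regulated anchor of the SREBP pathway, was at 40.3, 33.1, 34.5 and 30.1 CPM and 106, 94.01, 105 and 67.3 CPM (log2 change 1.46, SE 0.15, adjusted p = 2.87e-07), and the sterol oxidase MSMO1 rose by 1.09 (adjusted p = 1.44e-07). HMGCS1, an early enzyme of the pathway, was at 116 ± 15.4 CPM and 107 ± 13.2 CPM and did not pass (adjusted p = 0.443).

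Of 32 glycolysis and hypoxia genes 10 were higher and none lower, with a median of 0.38. With the replicate number as a block 25 of them were higher. The growth factor VEGFA was at 165, 164, 199 and 157 CPM in GFP replicates 1 to 4 and 271, 273, 324 and 303 CPM in A replicates 1 to 4 (log2 change 0.77, SE 0.12, adjusted p = 8.59e-05). GAPDH and ENO1, glycolytic enzymes among the genes with the most counts of those called higher, rose, with log2 changes of 0.41 and 0.28 (adjusted p = 0.00862 and 0.00398). CA9, the carbonic anhydrase of hypoxic cells, was at 14.5, 8.31, 48.6 and 72.8 CPM and 44.2, 42.2, 121 and 167 CPM. In both groups replicates 3 and 4 of CA9 were above replicates 1 and 2, the groups overlapped, and CA9 passed only with the block (adjusted p = 0.298, with the block 7.1e-05).

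Of 71 nuclear genes of oxidative phosphorylation 23 were higher (32.4%), none lower and 48 did not pass, with a median log2 change of 0.14. Of all genes 10.9% were higher and 9.33% lower, and 33.2% of those of at least 5 CPM passed in either direction. Without the shallow GFP replicate 1, 15 of the 71 were higher. UQCR10 of complex III was at 51.4, 47.1, 41.95 and 47.9 CPM with the GFP hairpin and 74.9, 83.6, 76.7 and 65.98 CPM with hairpin A (log2 change 0.69, SE 0.08, adjusted p = 1.3e-07). ATP5PD of ATP synthase rose by 0.54 (adjusted p = 8.62e-07). On the mitochondrial genome 2 of 15 transcripts (13.3%) were called higher, near the share of all genes. Without A replicates 1, 3 or 4 or GFP replicates 1, 2 or 3 it was 1 transcript. COX3, a subunit of cytochrome oxidase, was at 2823, 3108, 3128 and 4213 CPM and 4984, 4429, 4721 and 4122 CPM (log2 change 0.46, SE 0.11, adjusted p = 0.00584). COX3 lost its call in the 8 libraries with the replicate block (adjusted p = 0.117), and GFP replicate 4, which also held the higher share of mitochondrial ribosomal RNA, lay above A replicate 4.

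Of 79 cytosolic ribosomal protein genes 41 were higher, 2 lower and 36 did not pass, with a median log2 change of 0.18, and with library sizes alone 34 were higher and 8 lower. RPS18 was at 3027, 3455, 3265 and 3887 CPM and 4501, 4484, 4660.2 and 4625 CPM (log2 change 0.42, SE 0.06, adjusted p = 7.29e-06), and RPL26 at 482, 527, 569.8 and 605 CPM and 788, 784, 817 and 758 CPM (log2 change 0.52, SE 0.07, adjusted p = 2.49e-07). The 2 that fell were RPL10 and RPSA, with log2 changes of -0.61 and -0.28 (adjusted p = 2.18e-08 and 0.000224). RPL10 was at 678, 709, 723 and 744 CPM and 453, 464, 458 and 494 CPM, with all A libraries below all GFP libraries. Ribosomal protein genes have many processed copies, so these counts are uncertain where reads were shared. Of 41 ribosome biogenesis genes 10 were higher (24.4%) and 3 lower (7.32%), against 10.9% and 9.33% of all genes. The largest rise among them was 0.44 on the log2 scale, and NCL and DDX21 were among the 3 falls. NCL, the nucleolin that binds ribosomal RNA precursors, was at 1418, 1510.1, 1321 and 1454 CPM and 922, 873, 788 and 935 CPM (log2 change -0.697, SE 0.06, adjusted p = 6.4e-10), and the helicase DDX21 fell by 0.46 (adjusted p = 2.33e-05). Of 28 genes of the MYC network and classical MYC targets 4 were higher (14.3%) and 6 lower (21.4%), against 10.9% and 9.33% of all genes. In either direction 27.1% of protein-coding genes and 33.2% of genes of at least 5 CPM were called. The number of calls thus sets neither the MYC list nor the ribosome biogenesis list apart. The largest called change on the MYC list was a fall, with a log2 change of -2.10. MXD4 and HSPE1 were among the 4 that rose. MXD4, a MAX partner that opposes MYC, was at 73.2, 105, 120.5 and 109 CPM and 197, 206, 222 and 203 CPM (log2 change 0.998, SE 0.14, adjusted p = 1.95e-05), and the mitochondrial co-chaperonin HSPE1 rose by 0.70 (adjusted p = 6.73e-08).

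**Figure D3:**
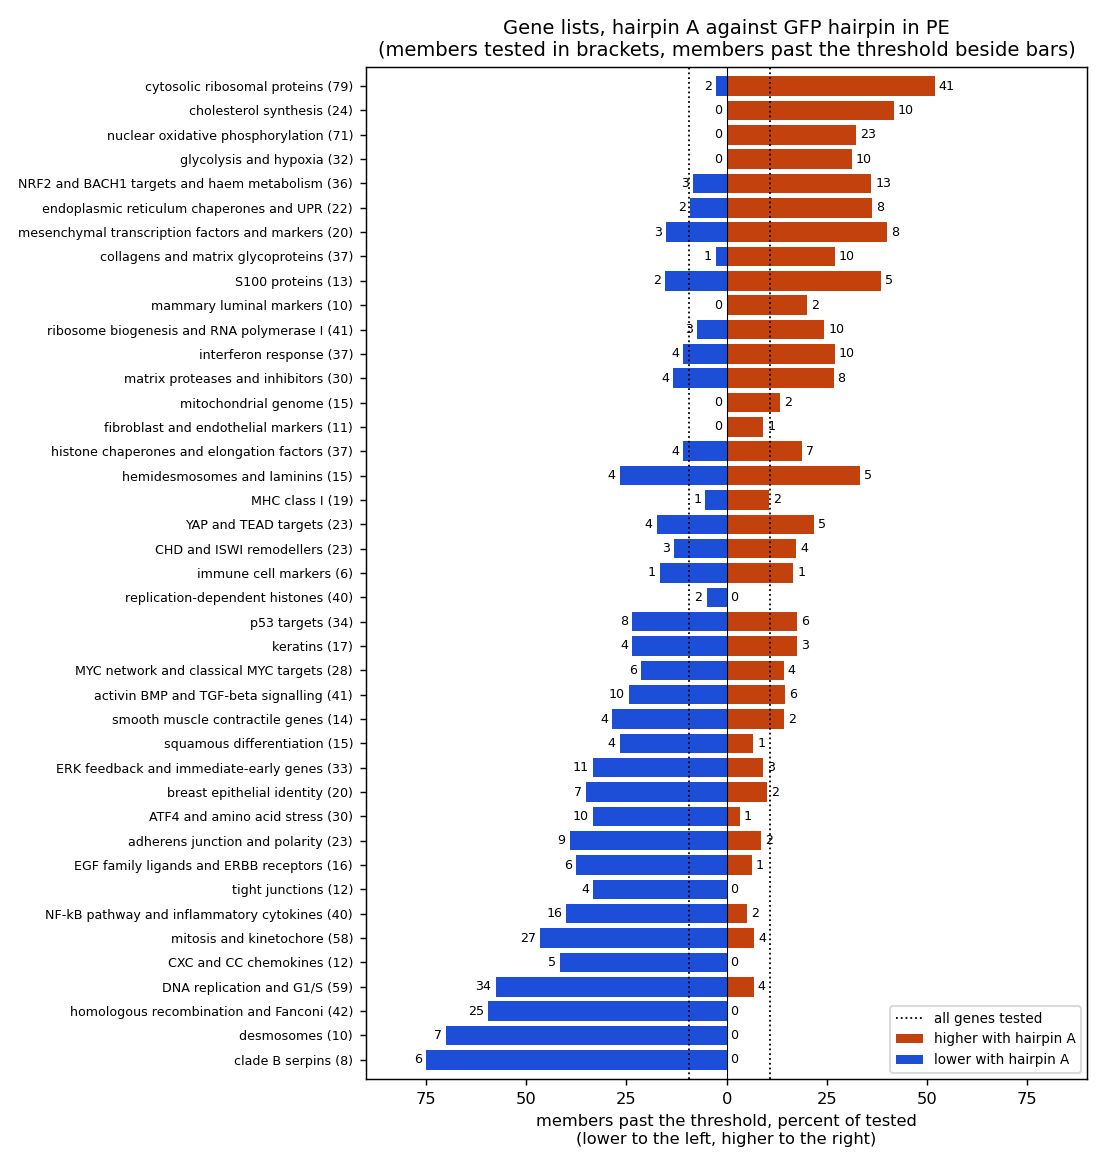
For each of 41 gene lists, the percent of tested members called higher (right) or lower (left) with hairpin A in PE, with counts beside the bars. The dotted lines are the shares among all genes tested, 10.9% higher and 9.33% lower. Among protein-coding genes alone the share called in either direction was larger, at 27.1%.

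Among histone chaperones and remodellers, SMARCA1, ASF1A and SUPT16H had the largest rises. SUPT16H, the large subunit of FACT, was at 135, 127, 112 and 139 CPM with the GFP hairpin and 281, 277, 252 and 267 CPM with hairpin A (log2 change 1.07, SE 0.07, adjusted p = 2.77e-13). Its partner SSRP1 was at 337, 400.0, 396 and 403 CPM and 359, 354, 338 and 342 CPM and did not pass (log2 change -0.14, adjusted p = 0.0731), but it was called lower without the shallow GFP replicate 1 (log2 change -0.20, adjusted p = 0.00722) or with the replicate block (adjusted p = 0.0403). ASF1A, a chaperone of newly made histones, was at 8.01, 7.64, 8.55 and 8.17 CPM and 27.9, 22.4, 20.8 and 20.2 CPM (log2 change 1.49, SE 0.15, adjusted p = 1.53e-09). Of 37 histone chaperones and elongation factors 7 were higher (18.9%) and 4 lower (10.8%), and without GFP replicate 3, 7 were higher and 2 lower. Among 23 CHD and ISWI remodellers 4 were higher (17.4%) and 3 lower (13.0%), with CHD1 among the latter, against 10.9% and 9.33% of all genes. Of all protein-coding genes tested, 27.1% were called in either direction. The shares thus do not set the remodellers, or the chaperones and elongation factors, apart. With library sizes alone 6 remodellers were lower, and among genes of at least 5 CPM in 4 libraries 5 were lower. SMARCA1, an ISWI remodeller, was at 5.56, 4.13, 5.94 and 5.96 CPM and 15.7, 17.8, 17.6 and 16.4 CPM (log2 change 1.63, SE 0.15, adjusted p = 2.2e-10). CHD2, the closest relative of CHD1, rose by 0.28 (adjusted p = 0.00302). CHD8 was at 112 ± 4.68 CPM against 112 ± 3.56 CPM and did not pass (adjusted p = 0.979). BAZ1A, a partner of ISWI remodellers, rose by 0.49 (adjusted p = 1.43e-06), and the other ISWI ATPase, SMARCA5, did not pass (adjusted p = 0.805).

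Genes of EGF, ERK and amino acid stress signalling fell more often than they rose, and interferon genes rose more often than they fell. Of 16 EGF family ligands and ERBB receptors 6 were lower and 1 higher. EGFR, the receptor for the EGF of the medium, was at 167, 145, 160.3 and 142 CPM and 107, 101, 109 and 111 CPM (log2 change -0.51, SE 0.07, adjusted p = 1.93e-06), and ERBB2 rose by 0.34 (adjusted p = 0.00133). Of 33 ERK feedback and immediate-early genes 11 were lower and 3 higher. The ERK phosphatases DUSP6 and DUSP2 fell, with log2 changes of -0.60 and -1.08 (adjusted p = 0.00645 and 8.56e-05), while SPRED3, an inhibitor of the same cascade, was at 8.900, 5.06, 7.88 and 7.56 CPM and 19.7, 18.3, 19.5 and 16.2 CPM (log2 change 1.35, SE 0.24, adjusted p = 9.25e-05). Of 30 ATF4 and amino acid stress genes 10 were lower and 1 higher, and none was higher without A replicates 3 or 4 or GFP replicates 1, 2 or 4. SLC7A5, the transporter of large neutral amino acids, was at 336, 419, 444 and 453 CPM and 197, 208, 184 and 249.6 CPM (log2 change -0.98, SE 0.12, adjusted p = 1.27e-06), and SLC38A2 fell by 0.70 (adjusted p = 7.64e-07). Of 37 interferon response genes 10 were higher and 4 lower, with 6 higher without A replicate 1 or A replicate 3 and 5 without GFP replicate 3. IFITM3, which blocks viral entry, was at 175, 206, 202 and 208 CPM and 351, 375, 366 and 288 CPM (log2 change 0.799, SE 0.09, adjusted p = 3.04e-08).

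Further lists held calls in both directions, where 10.9% of all genes were higher and 9.33% lower. Endoplasmic reticulum chaperones had 8 higher (36.4%) and 2 lower of 22, with 5 higher with library sizes alone. YAP and TEAD targets had 5 higher (21.7%) and 4 lower (17.4%) of 23, with 7 and 7 under the replicate block and 8 and 3 without GFP replicate 3. ANKRD1, a nuclear ankyrin repeat protein of that list, had the largest rise among its members from a level near 0, at 0.223, 0, 0.0457 and 0.197 CPM in the GFP and 0.972, 1.11, 1.203 and 2.04 CPM in the A libraries (log2 change 3.703, SE 0.79, adjusted p = 0.000768). S100 proteins had 5 higher (38.5%) and 2 lower of 13, with 3 and 2 without A replicate 3, A replicate 4 or GFP replicate 2. Squamous differentiation genes had 1 higher (6.67%) and 4 lower (26.7%) of 15, with 2 lower without A replicate 4, GFP replicate 2 or GFP replicate 3. Smooth muscle genes had 2 higher (14.3%) and 4 lower (28.6%) of 14, with 1 lower without GFP replicate 3. Among the general breast epithelial markers 2 of 20 were higher and 7 lower, with 1 higher without A replicates 1, 2 or 3 or GFP replicates 1 or 2. PPIA, a peptidyl-prolyl isomerase often used as a reference gene, was at 1438, 1479.9, 1445 and 1452 CPM and 1317, 1307, 1314 and 1251 CPM (log2 change -0.16, SE 0.06, adjusted p = 0.0418). PPIA lost its call without A replicate 4 (adjusted p = 0.0692), GFP replicate 2 (0.103), GFP replicate 3 (0.0744) or GFP replicate 4 (0.0737).

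The median change differed little with gene span, while the share of falls was smallest among the shortest genes. Protein-coding genes, without the weakest, were split into 5 equal groups by the length of the locus. The median log2 change went from 0.055 in the shortest (up to 10.2 kb) to -0.010 in the longest (over 92.8 kb). The percent of genes called lower was 11.1% in the shortest group, 16.9% in the fourth and 15.2% in the longest, and the percent called higher went from 18.0% to 15.4%.

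With hairpin B against CHD1 the target was at 28.1 ± 3.07 CPM, against 29.2 ± 1.200 CPM with hairpin A (log2 difference -0.06, SE 0.099, adjusted p = 0.769). The 2 hairpins in PE were set against each other directly, without the shared GFP libraries. In all, 3451 genes (16.6%) differed between hairpins B and A, and 1312 of the 4208 genes called with hairpin A were among them. Of these, 903 lay nearer the GFP level, or on its other side, with hairpin B, and 409 lay farther from it. These genes were chosen by a contrast that uses the same A libraries, so the larger share nearer the GFP level is a description.

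FAM3C, a secreted cytokine-like protein on chromosome 7, was low with hairpin A and not with hairpin B. It was at 96.8, 106, 120.0 and 110.2 CPM in the GFP libraries and 23.1, 22.7, 21.4 and 27.9 CPM in the A libraries (log2 change -2.19, SE 0.09, adjusted p = 6.82e-19), and at 114 ± 10.6 CPM with hairpin B (log2 difference of B from A 2.26, adjusted p = 3.92e-19). In PM, where 26.3% of genes differed between hairpins B and A, FAM3C was at 134 ± 6.26 CPM for the GFP hairpin, 24.1 ± 3.77 CPM for hairpin A and 131 ± 4.79 CPM for hairpin B (B against A 2.45, adjusted p = 3.62e-20). The copy FAM3C2P on chromosome X followed it, at 20.5 ± 5.48 CPM against 3.77 ± 1.64 CPM (log2 change -2.36, SE 0.24, adjusted p = 1.2e-07), and reads could be split between gene and copy. AKAP12, a scaffold for protein kinase A, was at 82.5, 80.01, 99.98 and 122 CPM with the GFP hairpin, 32.3, 35.6, 27.2 and 44.7 CPM with hairpin A and 139 ± 20.6 CPM with hairpin B (B against A 1.99, adjusted p = 4.1e-07). In PM it was at 80.1 ± 23.2, 22.7 ± 2.89 and 118 ± 12.1 CPM. PAPPA, a protease that releases insulin-like growth factors, was at 58.98 ± 9.54, 30.6 ± 3.59 and 75.6 ± 14.2 CPM in PE (B against A 1.31, adjusted p = 1.3e-07) and at 15.3 ± 3.17, 6.88 ± 0.453 and 19.03 ± 2.16 CPM in PM. In both lines the A level of FAM3C, AKAP12 and PAPPA was the lowest of the 3 hairpins.

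**Figure D4:**
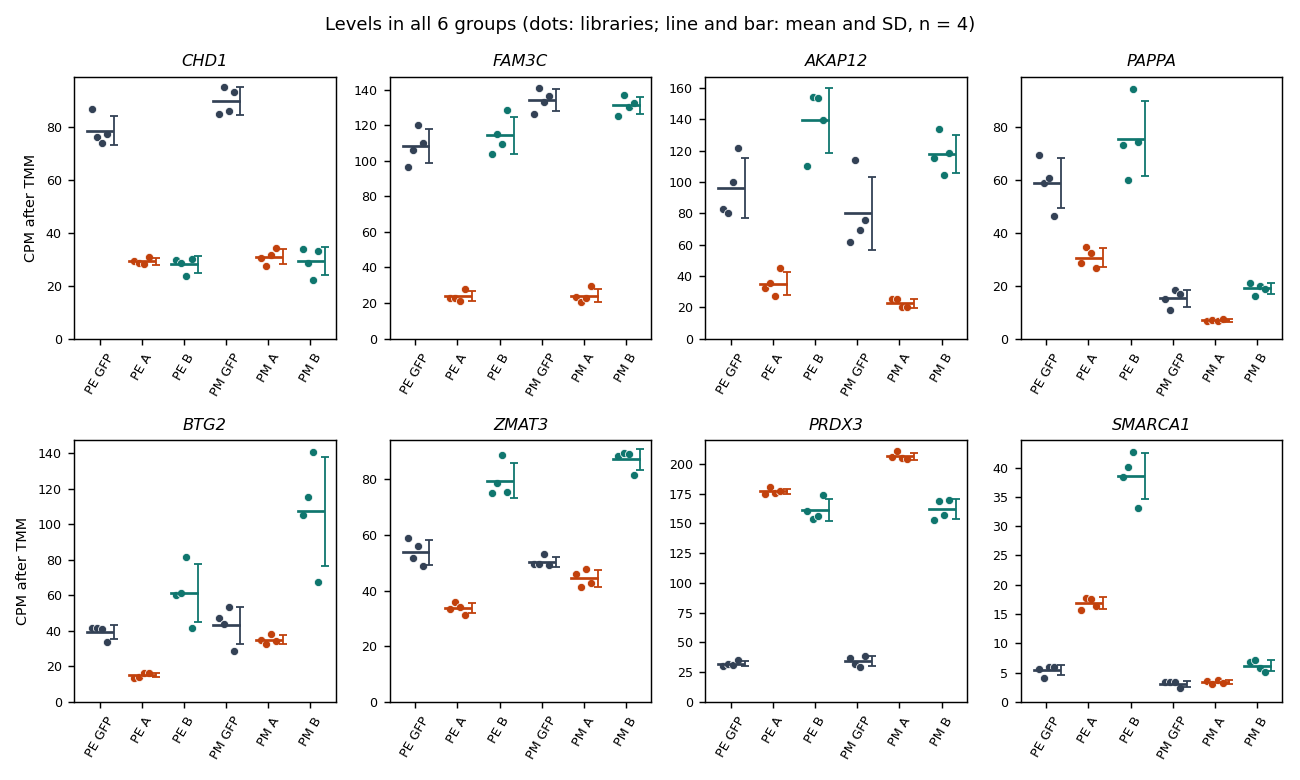
Levels in CPM after TMM in all 6 groups (PE and PM, each with the GFP hairpin, hairpin A and hairpin B) for 8 genes, with dots for libraries and line and bar for mean and SD. CHD1 is low with both CHD1 hairpins, FAM3C, AKAP12 and PAPPA are lowest with hairpin A in each line, and PRDX3 is high with both CHD1 hairpins.

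Against the same GFP libraries hairpin B called 26.8% of genes. Of the genes called in opposite directions under the 2 hairpins, 47 were lower and 46 higher with hairpin A. The p53 targets BTG2 and EDA2R were among the largest. BTG2 was at 61.2 ± 16.4 CPM with hairpin B (B against A 2.02, adjusted p = 1.9e-06) and EDA2R at 18.02 ± 2.39 CPM with the GFP hairpin, 10.2 ± 1.54 CPM with hairpin A and 25.9 ± 4.08 CPM with hairpin B (B against A 1.35, adjusted p = 1.98e-08). Of the 34 p53 targets 24 were higher and 1 lower with hairpin B than with hairpin A, against 7.48% and 9.09% of all genes. ZMAT3 was at 79.6 ± 6.39 CPM with hairpin B (B against A 1.24, adjusted p = 1.75e-14). IGFBP2, an insulin-like growth factor binding protein, was at 11.7 ± 3.23, 6.19 ± 2.44 and 18.3 ± 1.56 CPM with the GFP hairpin, A and B (B against A 1.56, adjusted p = 8.79e-06), and BTBD11 ran the other way, at 7.59 ± 2.61, 12.7 ± 1.89 and 3.94 ± 1.01 CPM (B against A -1.68, adjusted p = 4.27e-07). Cholesterol synthesis genes also differed, with 16 of 24 lower and 1 higher with hairpin B than with A.

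Further genes changed more with hairpin A than with B. DHRS9 was at 5.39 ± 0.841 CPM with hairpin B (B against A -1.27, adjusted p = 0.00393). RPS6KA5, a kinase of histone H3 downstream of ERK, was at 7.57, 5.47, 5.76 and 4.54 CPM with the GFP hairpin, 1.26, 1.08, 1.804 and 1.52 CPM with hairpin A and 3.02 ± 0.521 CPM with hairpin B (B against A 1.08, adjusted p = 0.00111). C4B, a complement component with a near-identical neighbour, was at 5.34 ± 1.76, 19.6 ± 6.62 and 7.38 ± 1.599 CPM (B against A -1.41, adjusted p = 0.00241). PRDX3 was high with both hairpins, at 161 ± 8.98 CPM with B (B against A -0.13, SE 0.07, adjusted p = 0.198). SUPT16H gave a difference of -0.13 (SE 0.07, adjusted p = 0.205) and CXCL8 one of -0.14 (SE 0.198, adjusted p = 0.721).

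Hairpin A in PM used its own GFP libraries and called 5778 genes (27.8%). The same direction was called in both lines for 2449 genes, which are 58.2% of the PE calls and 42.4% of the PM calls, and opposite directions for 109. A test of the difference between the lines passed for 1386 genes (6.66%), and for 2184 with the replicate number as a block. Of the genes called in PE 672 were among the 1386, and for 520 of these the change was smaller in PM or turned. These genes were chosen by their change in PE libraries that the difference also uses, so the larger share with a smaller change in PM is a description.

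Epithelial genes differed between the lines in both directions. The change was higher in PM for 4 desmosome, 3 tight junction and 5 adherens junction genes, and lower for 0, 0 and 3. It was higher for 2 and lower for 4 hemidesmosome and laminin genes, for 0 and 5 keratins and for 1 and 3 general breast epithelial markers. LAMB3 and KRT6A fell further in PM (PM minus PE -0.74 and -1.06, adjusted p = 0.00824 and 0.0131), while EPCAM, PKP2, ESRP1 and GALNT3 fell less. EPCAM changed by 0.18 in PM (PM minus PE 1.65, SE 0.28, adjusted p = 0.000941) and PKP2 by -0.11 (1.44, adjusted p = 0.000121). ESRP1 was at 17.4 ± 0.617 and 14.6 ± 1.44 CPM in PM (1.67, adjusted p = 0.00183), and GALNT3 at 24.7 ± 1.54 and 14.2 ± 0.977 CPM (1.61, adjusted p = 8.33e-05). ALDH1A3, a retinaldehyde dehydrogenase, fell by 2.08 in PE (adjusted p = 4.33e-09) and changed by -1.13 in PM (0.95, adjusted p = 0.0268). Rises that were larger in PE were those of SEMA3B (PM minus PE -1.45, adjusted p = 0.0293), SYN2 (-1.85, adjusted p = 0.0293), IL1R1 (-1.503, adjusted p = 1.26e-08) and SMARCA1 (-1.49, adjusted p = 9.39e-06). SMARCA1 was at 3.11 ± 0.543 CPM with the GFP hairpin and 3.397 ± 0.316 CPM with hairpin A in PM. All 5 chemokines called in PE fell further in PM. CXCL1 changed by -3.44 there (PM minus PE -1.62, adjusted p = 0.00278) and CCL20 by -3.67 (-2.43, adjusted p = 0.00016), and CXCL2, CXCL3 and CXCL8 gave differences of -1.86, -1.74 and -1.103 (adjusted p = 0.0121, 0.0235 and 0.0235). Of the 34 p53 targets the change was higher in PM for 16 and lower for none, against 2.76% and 3.90% of all genes. CDKN1A changed by 1.69 in PM (1.02, adjusted p = 0.00796), BBC3 by 0.41 (1.49, adjusted p = 8.95e-05) and BTG2 by -0.303 (1.08, adjusted p = 0.0402).

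**Figure D5:**
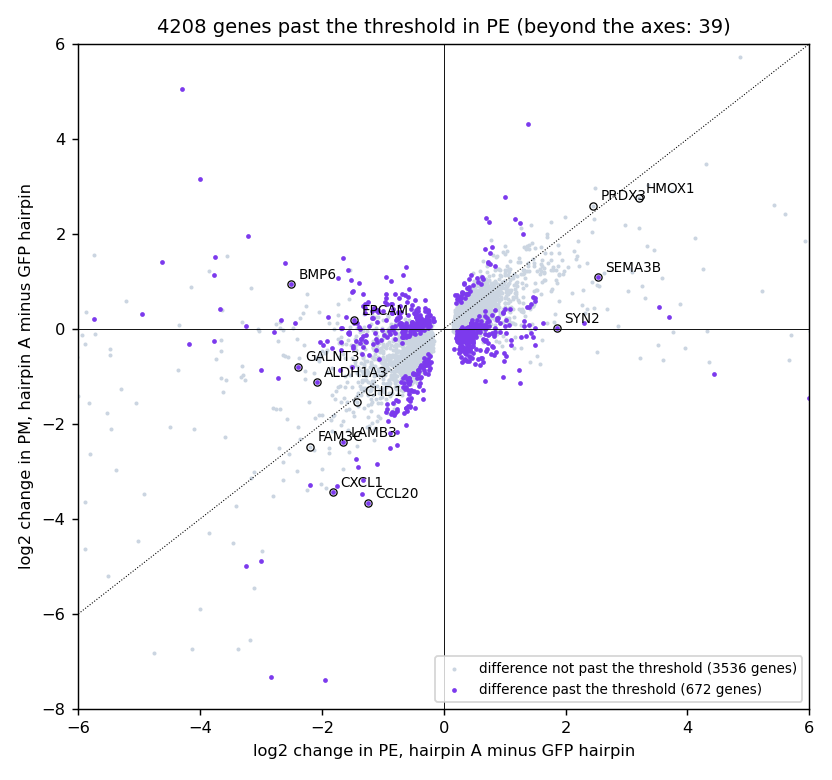
For the 4208 genes called in PE, the log2 change of hairpin A in PE (x axis) against that in PM (y axis), with the 672 genes whose difference between the lines passed in violet and equal change on the dotted line. EPCAM, GALNT3 and SYN2 lie nearer the horizontal zero line, and CXCL1 and CCL20 lie below the dotted line.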

How the data were processed

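The deposited values are raw read counts per gene for 59251 genes in 24 libraries. Per the submitters' processing notes, the authors used FastQC, Trim Galore 0.4.0, HISAT2 2.2.1 and featureCounts on GRCh38/hg38. Which gene models were counted, whether strand was used and how multi-mapping reads were handled is not stated in these sources, so paralogs, pseudogene copies and antisense genes are uncertain. Genes were matched to RefSeq by current symbol for 57842, by older symbol for 367 and not at all for 1042, and 17236 had no count. From the counts edgeR 4.0.16 (R 4.3.3) computed TMM scaling and a quasi-likelihood test with 1 mean per group over all 24 libraries, for the 20820 genes that passed its filter on low counts, and Benjamini-Hochberg adjusted p-values with a threshold of 0.05. Every adjusted p in the text comes from edgeR unless another tool is named. The SE is the log2 change divided by the root of the F statistic. The code was tested on simulated data. DESeq2 1.42.0 and limma 3.58.1 served as alternatives.

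The members, gene lists and tests were chosen with earlier results of these data known. Named genes are the 12 largest rises and 12 largest falls among protein-coding genes of at least 5 CPM in a group, up to 6 called members of each of 41 lists with the largest changes, 6 genes each for 3 kinds of difference from hairpin B or PM, and the 4 called genes with the most counts in each direction. Others, among them the neighbours of PRDX3, the pseudogene copies and further list members, were added after their values were seen. A few genes that the rule names are not reported here. Same-numbered A and GFP libraries deviated together (r = 0.198, 0.282, 0.263 and 0.363 over 11049 genes), so the numbers were taken to pair the libraries. The main fit and the permutation tests do not use this pairing, and a fit with the number as a block is the alternative. Depth was 4142862 to 66165036 counts, and 3 counts in the shallowest library are 0.724 CPM.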

Additional observations from a re-analysis of the deposited data

Results flagged for a closer look

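In 14 of 312 groups of 4 libraries examined, 1 library stood apart from the other 3 by Dixon's test. Chance alone flags about 1 in 20 such groups. The mitochondrial ribosomal RNA share of GFP replicate 4 was 0.439% against 0.286% in the next GFP library. In A replicate 2, IL1RN was at 0.293 CPM against 0.0936 CPM in the next library. In A replicate 3, SLC7A11 was at 45.3 CPM against 71.7 CPM in the next library and TP63 was at 1.35 CPM against 0.506 CPM in the next library. In A replicate 4, IGFBP2 was at 9.81 CPM against 5.26 CPM in the next library and PPIA was at 1251 CPM against 1307 CPM in the next library. In GFP replicate 1, COL17A1 was at 51.8 CPM against 30.9 CPM in the next library and GRK5 was at 1.56 CPM against 5.13 CPM in the next library. In GFP replicate 1, IFITM3 was at 175 CPM against 202 CPM in the next library and MYC was at 249 CPM against 283 CPM in the next library. In GFP replicate 1, SSRP1 was at 337 CPM against 396 CPM in the next library. In GFP replicate 3, TNFAIP3 was at 201 CPM against 157 CPM in the next library. In GFP replicate 4, BTG2 was at 33.6 CPM against 40.98 CPM in the next library and PI3 was at 95.9 CPM against 147 CPM in the next library.

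The test of the difference between the lines passed for 52 of the named genes, and the values are the log2 change with hairpin A in PM minus that in PE. Among epithelial adhesion and identity genes the difference was 1.65 for EPCAM, 1.67 for ESRP1, 1.44 for PKP2, 0.52 for DSP, 0.64 for F11R, -0.37 for CTNNA1, -0.28 for CTNNB1, 1.75 for COL17A1, 0.83 for LAMA3 and 1.61 for GALNT3. It was also negative for the laminin chains and keratin that were lower still or rose less in PM, with -0.74 for LAMB3, -0.44 for LAMB1 and -1.06 for KRT6A. Among chemokines, interleukins, their receptors and NF-kB inhibitors it was -1.62 for CXCL1, -1.86 for CXCL2, -1.74 for CXCL3, -1.10 for CXCL8, -2.43 for CCL20, -1.55 for IL1A, -1.50 for IL1R1, 3.52 for IL1RN, -1.90 for IL13RA2, -0.91 for CSF1, -0.95 for TNFAIP3 and -0.43 for NFKBIA. Among p53 targets it was 1.02 for CDKN1A, 0.94 for TRIAP1, 1.08 for BTG2, 0.48 for ZMAT3, 1.49 for BBC3 and 0.73 for EDA2R. Among mesenchymal, matrix and protease genes it was -0.34 for VIM, -0.45 for CDH2, -0.84 for SNAI1, -0.90 for SNAI2, -0.85 for S100A4, -1.16 for FAP, -0.83 for TIMP1 and -4.49 for SERPINB3. Among signalling, secreted and metabolic genes and the remodeller SMARCA1 it was 0.95 for ALDH1A3, -3.44 for ANKRD1, -0.32 for ENO1, -0.51 for ERBB2, -0.68 for FSTL3, -0.51 for IFITM3, 1.69 for IGFBP2, -0.79 for INSIG1, -1.45 for SEMA3B, 0.50 for SFXN4, -0.41 for SLC38A2, -1.49 for SMARCA1 and -1.85 for SYN2.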

How the results depend on the processing

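Leaving out each of the 8 libraries in turn gave 3464 to 3844 called genes, 1850 to 2159 higher and 1517 to 1844 lower. The other scalings, tools, filters and fits gave 3284 to 5013 calls, with 1645 to 2741 higher and 1639 to 2638 lower. Requiring at least a 2-fold change left 720 genes, 281 higher and 439 lower. The log2 change of CHD1 stayed between -1.71 and -1.38 and past the threshold under every alternative run. With the replicate number as a block over all 24 libraries, hairpin A gave 5013 calls in PE, and the difference between PM and PE 2184 in place of 1386. Apart from CA9, SLC7A11, SSRP1 and, in the 8 libraries alone, COX3, the block changed no call of a gene named for hairpin A in PE. In that 8-library fit the counts higher and lower were 7 and 13 for p53 targets, 17 and 6 for NRF2 and haem genes, and 10 and 13 for the activin, BMP and TGF-beta list. Of the genes named in the text 139 passed. Apart from the 2-fold requirement, 128 of these passed under every alternative run. The other 11 lost the call under at least 1 alternative, and 7 of them when 1 library was left out. A gene that a fit did not test was not counted as losing its call in it. No called gene named changed sign.

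Depth limits the weak genes: below 5 CPM 5.08% passed, and a gene at 0 in GFP replicate 1 may lie anywhere under 0.724 CPM. The 7 libraries without that replicate, a fit added after the data were seen, gave 2095 rises and 1999 falls.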
